A study of Mus musculus with 4 samples.

Results

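Expression of 34 genes for matrix proteases and their inhibitors was examined in 4 pancreatic cancer cell lines of mice. The genes were listed by name from the matrix metalloproteases (MMPs), the ADAM and ADAMTS proteases, the tissue inhibitors of metalloproteases (TIMPs) and the plasminogen activator system. Of the 34 genes, 31 were measured by a transcript cluster with 1 gene symbol, out of 19938 genes measured in this way. Mmp15, Adamts2 and Serpine2 were not analysed here. A cluster is the group of probes that reads 1 transcript, and its value is a log2 signal, so that a difference of 1 is a 2-fold difference.

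The lines TPC18645 and TPC20223 came from TPC mice, and K459 and TCPA18654 from TPAC mice. In the labels the TPC genotype is Ela-TGFa with Ptg1a+/CRE and Trp53fl/fl, and TPAC mice carry p65fl/fl in addition. The study's methods name the Cre allele p48-Cre. All 4 lines thus shared the TGF-α transgene, driven by the elastase promoter of acinar cells, and the loss of p53 in the pancreas, and by design the TPAC lines also lost RelA/p65. The cells were grown from digested tumors in culture without treatment, and RNA of each line was hybridized to 1 Affymetrix Mouse Gene 1.0 ST array. The age of the mice, and whether each line was derived from its own mouse, could not be learned from the labels or methods, so any p-value measures the spread between these lines.

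MMPs are zinc enzymes that are made as inactive proforms and cut collagens, laminins and other matrix proteins once the prodomain is removed. Some are secreted and others stay at the cell surface, where they also activate secreted MMPs. TIMPs bind the active site of MMPs and of some ADAM and ADAMTS enzymes. ADAM proteases sit in the membrane and release growth factors and receptors from it, among them TGF-α, whereas ADAMTS proteases are secreted and cut proteoglycans such as versican and aggrecan. The plasminogen activators uPA and tPA turn plasminogen into plasmin, and pancreatic tumors are known for a dense matrix in which these enzymes are active.

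Before the proteases are described, the lines themselves need a word. Krt19, a ductal cytokeratin, read 6.08 (log2 signal) in TPC20223 and 11.74 to 12.65 in the other lines. Cdh1, the E-cadherin gene, had 6.96 in TPC20223 and 12.57 to 12.68 in the other lines, whereas vimentin (Vim) lay between 13.79 and 13.91 in all 4. Epcam, a surface protein of epithelial cells, had 9.77 in K459 and 6.43 to 7.37 elsewhere. TPC20223 was therefore low in 2 defining epithelial genes. TPC18645 (TPC) and TCPA18654 (TPAC) had nearly the same profile: 54 of 19938 genes, 0.271%, lay 2-fold or more apart. Rela, the targeted gene, read 11.12 (TPC18645), 10.70 (TPC20223), 10.82 (K459) and 11.10 (TCPA18654). The exons removed by the p65fl allele are not given, and this signal does not check the labels.

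The 31 genes varied more widely over the 4 lines than most genes. TPC20223 was most often the line that stood apart by 2-fold or more, as over all genes. The 4 lines spanned 2-fold or more for 21 of the 31 genes, against 15.9% of all genes, and 4-fold or more for 7, against 5.52%. The median span was 1.35 on the log2 scale over the 31 genes and 0.40 over all genes. TPC20223 was the highest line for 18 of the 31 genes, against 28.1% of all genes. It lay above every other line by 2-fold or more for Mmp2, Mmp9, Mmp13, Timp1, Adam19, Adamts4 and Adamts12, that is for 7 of 31 against 4.24% of all genes. It was the lowest line for 7, against 38.8%, and lay below every other line by 2-fold or more for Mmp3, Adam10 and Plaur, 3 of 31 against 2.95% of all genes. TCPA18654 was the lowest line for 14 of the 31 genes, against 17.2% of all genes. It lay below every other line by 2-fold or more only for Mmp2, 1 of 31 against 0.0602% of all genes. For the rest of these genes its gap to the next line ran from 0.01 (Mmp9) to 0.71 (Adamts5). Each line is 1 array, so these counts describe the lines and carry no test. In such cultures a smaller number of cells that make an RNA and less of it per cell cannot be told apart.

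**Figure D1:**
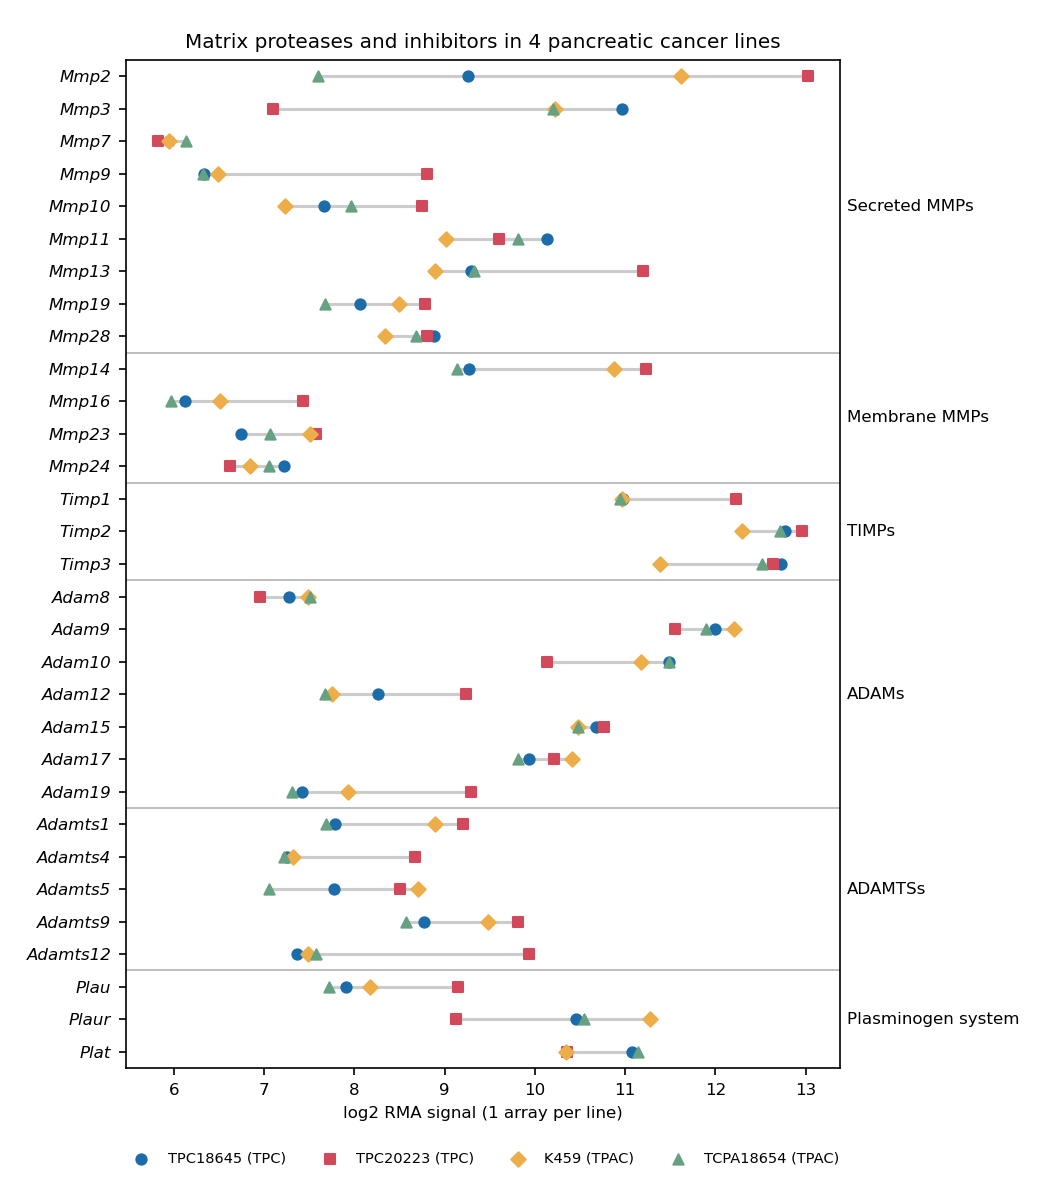
Log2 RMA signal (horizontal axis) of the 31 measured genes in each of the 4 lines, grouped by role; points are single arrays and grey lines the span. TPC20223 is the highest line for 18 genes, and the position of 1 gene against another has no meaning because probes differ in brightness.

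Several of the secreted MMPs lie side by side on chromosome 9, and the start regions of 4 of them are shown first because they share short sequence motifs while their signals differ in direction between the lines. In the RefSeq gene table of GRCm38.p6 the MMP genes of this chromosome follow each other as Mmp13, Mmp12, Mmp1b, Mmp3, Mmp1a, Mmp10, Mmp8, Mmp27, Mmp20 and Mmp7. The windows run from 250 bases before to 50 bases after the start of the RefSeq transcript on the plus strand of GRCm38.p6. Capitals mark the letters TGANTCA, the core of the binding motif of AP-1 factors (Fos and Jun proteins), and TATAAA, the core of the TATA box.
Mmp13, chr9:7272264-7272563: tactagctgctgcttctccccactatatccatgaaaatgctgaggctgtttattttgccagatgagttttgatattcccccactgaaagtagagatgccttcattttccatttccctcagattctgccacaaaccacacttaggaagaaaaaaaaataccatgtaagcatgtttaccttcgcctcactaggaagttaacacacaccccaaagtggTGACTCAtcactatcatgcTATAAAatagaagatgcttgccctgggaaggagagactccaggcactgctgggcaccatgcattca
Mmp3, chr9:7445572-7445871: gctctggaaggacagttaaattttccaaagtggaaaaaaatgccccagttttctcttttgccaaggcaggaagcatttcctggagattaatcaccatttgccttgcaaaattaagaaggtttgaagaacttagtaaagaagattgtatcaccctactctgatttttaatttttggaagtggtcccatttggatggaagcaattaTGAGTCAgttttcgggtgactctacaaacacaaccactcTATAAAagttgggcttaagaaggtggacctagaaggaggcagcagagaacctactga
Mmp10, chr9:7502092-7502391: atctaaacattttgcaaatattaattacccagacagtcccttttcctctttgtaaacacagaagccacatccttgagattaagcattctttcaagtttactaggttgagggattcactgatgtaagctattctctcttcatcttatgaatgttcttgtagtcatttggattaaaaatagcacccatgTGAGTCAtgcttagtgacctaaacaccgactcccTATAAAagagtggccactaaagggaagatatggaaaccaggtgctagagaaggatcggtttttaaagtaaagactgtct
Mmp7, chr9:7691840-7692139: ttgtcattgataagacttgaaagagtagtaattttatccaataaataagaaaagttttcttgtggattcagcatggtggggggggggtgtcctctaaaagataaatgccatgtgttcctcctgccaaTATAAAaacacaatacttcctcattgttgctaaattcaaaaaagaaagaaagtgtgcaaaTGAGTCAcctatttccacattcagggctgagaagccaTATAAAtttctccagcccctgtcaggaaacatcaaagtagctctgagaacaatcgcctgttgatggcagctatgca

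The AP-1 letters begin 35 bases before the start in Mmp13, at -35, and at -46 in Mmp3, -63 in Mmp10 and -63 in Mmp7. The TATA letters nearest to the start begin at -16 in Mmp13, -7 in Mmp3, -29 in Mmp10 and -26 in Mmp7. Mmp7 has a further window, which holds neither motif. Searched on both strands, the AP-1 letters are in 7.81% of 32851 RefSeq windows of this length, the TATA letters in 13.6% and both in 1.54%. Of the 34 genes, 24 have a window in this table. Among these, 6 hold the AP-1 letters, and only the 4 chromosome 9 genes shown hold both motifs. Mmp2, Mmp9, Mmp16, Mmp19, Adam9, Adam12, Adamts4, Adamts5, Plau and Plat have no window in the table. A match describes the letters and not a bound site.

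The signals of these neighboring genes went in opposite directions between the lines. Mmp13, an interstitial collagenase, had a log2 signal of 9.29 (TPC18645), 11.20 (TPC20223), 8.89 (K459) and 9.32 (TCPA18654). TPC20223 was thus high and the other lines lay within 0.43 of each other. Mmp3 (stromelysin-1), which cuts many matrix proteins and activates other MMPs, had 10.96 (TPC18645), 7.10 (TPC20223), 10.22 (K459) and 10.20 (TCPA18654). Here TPC20223 was the low line, 8.57-fold below TCPA18654 and 14.5-fold below TPC18645. Mmp10 (stromelysin-2), the close relative of Mmp3, had 7.66 (TPC18645), 8.75 (TPC20223), 7.23 (K459) and 7.96 (TCPA18654). TPC20223 was again the highest line, 2.87-fold above K459 but less than 2-fold above TCPA18654. Mmp7 (matrilysin), an MMP of epithelial cells, lay between 5.83 and 6.13 in the 4 lines and was dim, which here means that its mean signal was no higher than 6.96, the 40th percentile over all genes. The 4 genes that hold both motifs therefore included 1 that was lowest in TPC20223 by more than 2-fold, 1 that was highest by more than 2-fold, 1 that was highest by less, and 1 that hardly varied. Of the other genes of the cluster, Mmp8, a collagenase of neutrophils, had 5.59, 4.30, 4.50 and 5.10 in TPC18645, TPC20223, K459 and TCPA18654 and was dim. Mmp12, Mmp1b, Mmp1a, Mmp27 and Mmp20 spanned at most 0.40 and were dim as well.

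**Figure D2:**
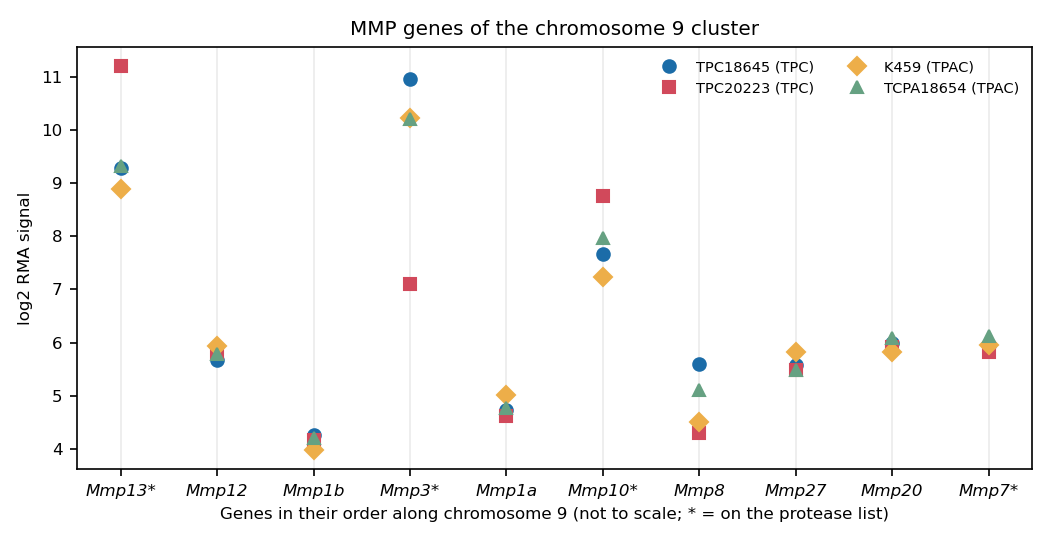
Log2 RMA signal (vertical axis) in each of the 4 lines for the 10 MMP genes of chromosome 9, in their order along the chromosome and not to scale; points are single arrays. TPC20223 is the highest line for Mmp13 and Mmp10 and the lowest for Mmp3.

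Mmp2 (gelatinase A), which cuts type IV collagen of basement membranes, varied most among the 31 genes. Its log2 signal was 9.26 (TPC18645), 13.02 (TPC20223), 11.62 (K459) and 7.60 (TCPA18654). All 4 lines differed from each other by 2-fold or more, with 42.8-fold between TPC20223 and TCPA18654 and 3.16-fold between TPC18645 and TCPA18654. Mmp2 was the only gene of the 31 that lay 2-fold or more apart between the last 2 lines, which have nearly the same profile. Mmp9 (gelatinase B) had 6.33 (TPC18645), 8.80 (TPC20223), 6.49 (K459) and 6.32 (TCPA18654). It was thus high in TPC20223, 4.96-fold above K459, and within 0.17 in the other lines. Those lines read below 6.96, the limit used here for dim genes, so the fold rests on a low signal in K459.

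The remaining secreted MMPs varied less. Mmp11 (stromelysin-3), which furin activates before secretion, had 10.13 (TPC18645), 9.60 (TPC20223), 9.02 (K459) and 9.81 (TCPA18654), and K459 was the lowest line. Mmp19 had 8.06 (TPC18645), 8.78 (TPC20223), 8.49 (K459) and 7.68 (TCPA18654), with neighboring lines 0.29 to 0.43 apart. Mmp28 (epilysin) spanned only 0.54, from 8.34 in K459 to 8.88 in TPC18645.

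Of the 4 membrane-bound MMPs, Mmp14, Mmp16 and Mmp23 were highest in TPC20223 and K459, which differ in genotype by their labels. Mmp14 (MT1-MMP), the main activator of pro-MMP2 at the cell surface, had 9.27 (TPC18645), 11.23 (TPC20223), 10.88 (K459) and 9.14 (TCPA18654). The signal in the lower of these 2 lines, K459, was 3.05-fold above that in TPC18645, the higher of the rest. Mmp16 (MT3-MMP), a dim gene, had 6.12, 7.43, 6.51 and 5.97 in the same order of lines. Mmp23 ranged from 6.74 to 7.57 and Mmp24 (MT5-MMP), also dim, from 6.62 to 7.22, each within 2-fold. TPC20223 and K459 both lay above the other lines by 2-fold or more for 3 of the 31 genes, Mmp2, Mmp14 and Adamts1, against 0.978% of all genes. They were the 2 highest lines, at any distance, for 13 of the 31 genes against 16.3% of all genes.

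The 3 TIMPs spanned 0.67 to 1.34 over the lines, and no line was the low or high one for all of them. Timp1 had a log2 signal of 10.98 (TPC18645), 12.23 (TPC20223), 10.97 (K459) and 10.94 (TCPA18654). TPC20223 was 2.38-fold above the next line, and the rest lay within 0.04. Timp3, which binds to the matrix and also inhibits ADAM17 and aggrecanases, had 12.73 (TPC18645), 12.64 (TPC20223), 11.39 (K459) and 12.51 (TCPA18654). K459 was the low line, 2.17-fold below TCPA18654. Timp2, which takes part in the activation of pro-MMP2 by MT1-MMP, spanned 0.67 from 12.29 in K459 to 12.96 in TPC20223. Of the 31 genes, only Timp3 was 2-fold or more lower in K459 than in every other line, against 0.331% of all genes.

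Of the 7 ADAM genes, Adam10, Adam12 and Adam19 spanned 2-fold or more, and Adam8, Adam9, Adam15 and Adam17 less. Adam17, the enzyme that releases TGF-α from the cell surface, had 9.93 (TPC18645), 10.21 (TPC20223), 10.41 (K459) and 9.81 (TCPA18654), so that the lines stayed within 0.60. Adam10, a sheddase of E-cadherin and Notch, had 11.48 (TPC18645), 10.13 (TPC20223), 11.17 (K459) and 11.48 (TCPA18654). TPC20223 was low, 2.06-fold below the next line. Adam9 (11.55 to 12.20) and Adam8 (6.96 to 7.51) were also lowest in TPC20223, with spans of 0.65 and 0.55, and Adam15 spanned 0.28. Adam19, which can shed neuregulin, had 7.42 (TPC18645), 9.29 (TPC20223), 7.93 (K459) and 7.31 (TCPA18654). TPC20223 was 2.57-fold above K459. Adam12, an ADAM of mesenchymal and tumor cells, had 8.26 (TPC18645), 9.24 (TPC20223), 7.75 (K459) and 7.68 (TCPA18654), and so was higher in both TPC lines.

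All 5 measured ADAMTS genes spanned 2-fold or more. Adamts12 had 7.37 (TPC18645), 9.93 (TPC20223), 7.49 (K459) and 7.58 (TCPA18654), with TPC20223 5.10-fold above the next line. Adamts4 (aggrecanase-1) had 7.25, 8.67, 7.32 and 7.22 in the same order, and TPC20223 again stood alone, 2.55-fold above K459. In the other aggrecanases and versicanases K459 also lay clearly above TPC18645. Adamts1 had 7.79 (TPC18645), 9.20 (TPC20223), 8.89 (K459) and 7.69 (TCPA18654). Adamts5 (aggrecanase-2) had 7.77, 8.51, 8.70 and 7.06 in the same order of lines. Adamts9 had 8.77, 9.81, 9.48 and 8.57. In these 3 genes, as in Adamts4, TPC20223 and K459 were the higher lines and TCPA18654 the lowest, but K459 exceeded TPC18645 by 0.71 to 1.10, against 0.07 for Adamts4. Adamts9 was read by 6 clusters, and the brightest stood for the gene. Over the 6, TPC20223 exceeded TPC18645 by 0.27 to 1.04 and K459 exceeded TPC18645 by 0.21 to 1.07. In 1 of them K459 (8.74) lay above TPC20223 (8.61).

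In the plasminogen system the protease uPA and its receptor went in opposite directions in TPC20223. K459 lay above TPC18645 and TCPA18654 for both genes. Plau, the uPA gene, had 7.91 (TPC18645), 9.15 (TPC20223), 8.17 (K459) and 7.72 (TCPA18654). Plaur, the gene of the uPA receptor that holds uPA at the cell surface, had 10.45 (TPC18645), 9.13 (TPC20223), 11.28 (K459) and 10.54 (TCPA18654). TPC20223 was thus the highest line for uPA and the lowest for its receptor, with a Plaur signal 2.50-fold below the next line and 4.44-fold below K459. The start region of Plaur is shown because it holds the AP-1 letters at -69 but no TATA letters, again with capitals for the motif, on the plus strand of GRCm38.p6.
Plaur, chr7:24462233-24462532: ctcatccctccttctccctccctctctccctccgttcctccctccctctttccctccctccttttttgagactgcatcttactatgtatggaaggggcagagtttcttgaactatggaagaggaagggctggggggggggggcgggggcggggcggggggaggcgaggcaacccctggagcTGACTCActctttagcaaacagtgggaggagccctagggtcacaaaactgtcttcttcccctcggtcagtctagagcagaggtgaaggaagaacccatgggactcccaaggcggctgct
Plat, the tPA gene, spanned 0.80, from 10.34 in K459 to 11.14 in TCPA18654. TPC18645 and TCPA18654 lay within 0.06 of each other for Plat, and K459 and TPC20223 within 0.01. The kB motif, which NF-κB subunits such as RelA bind, was found by its letters in the windows of 2 of the 24 genes, Adamts9 and Adam19, against 8.46% of all windows.

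The comparison of TPAC with TPC cells asks whether the additional loss of RelA/p65, known here from the labels only, goes along with other protease levels. TPC18645 and TCPA18654, which have nearly the same profile, stand in opposite groups, so the difference rests largely on TPC20223 and K459. None of the 31 genes passed the test between genotypes. With limma across 19938 genes the adjusted p stayed at 0.989 or above for each of the 31 genes. Calls needed an adjusted p of at most 0.05 plus a log2 difference of at least 0.58, and neither the 31 genes nor the whole set (0%) gave any. At an unadjusted p under 0.05, 0 of the 31 genes passed, against 0.782% of all genes, or 0.421% with that difference as well. The methods' t-test with the same adjustment also called 0 of the 31 genes, and 0 at an unadjusted p under 0.05 with the same log2 difference.

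The means were lower in TPAC cells for 21 of the 31 genes and higher for 10, against 46.7% and 52.2% of all genes, with a median difference of -0.34 against 0.02 (log2). A difference of 0.58 or more was found for 11 lower genes and for 2 higher ones, Mmp3 and Plaur, against 5.25% and 3.95% of all genes. Without TPC20223 this no longer held: 18 of the 31 genes then had a higher TPAC mean, against 46.3% of all genes, the median was 0.04 and 16 genes changed sign. Without TPC18645, K459 or TCPA18654, 8, 8 and 14 genes were higher (56.2%, 53.5% and 48.6% of all genes) and the medians were -0.69, -0.26 and -0.24. Without TPC18645, 13 of the 31 genes had an unadjusted p under 0.05, against 16.8% of all genes, and the smallest adjusted p among the 31 by limma was 0.0914. Without TPC20223, K459 or TCPA18654 there were 2, 0 and 1 such genes, against 0.928%, 0.0953% and 1.98% of all genes. In each of these fits 1 line stands alone for its genotype and is taken to vary like the others.

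By role, the TPAC mean was lower for 7 of 9 secreted MMPs, 2 of 4 membrane-bound MMPs, 3 of 3 TIMPs, 3 of 7 ADAM genes, 5 of 5 ADAMTS genes and 1 of 3 genes of the plasminogen system. The difference was -1.53 for Mmp2 and 0.35 without TPC20223. For Mmp3 it was 1.18 and -0.75 without this line, and for Mmp14 -0.24 and 0.74. All 5 ADAMTS genes had a higher TPAC mean without TPC20223, whereas Timp1, Timp2 and Timp3 stayed lower, at -0.03, -0.27 and -0.78. None of these passed the test.

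Both TPAC lines lay below both TPC lines for 6 genes, Mmp28, Timp1, Timp2, Timp3, Adam12 and Adam15, against 13.3% of all genes. For Timp1 and Timp2 the nearest lines of the 2 genotypes were 0.01 and 0.05 apart. Both TPAC lines lay above both TPC lines for Adam8 and Plaur, 2 of 31 against 13.7% of all genes. The labels can be assigned to the lines in 6 ways, and the smallest two-sided p of an exact permutation test is then 0.333.

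The 3 genes with the smallest p in each direction were the following. Adam12 averaged 7.72 ± 0.05 over the TPAC lines and 8.75 ± 0.69 over the TPC lines (SD, n = 2 each), which is a difference of -1.03 ± 0.38 (SE; limma, adjusted p = 0.989). The difference was -0.55 without TPC20223 and -1.52 without TPC18645. Adam15 differed by -0.24 ± 0.12 (SE) and Mmp28 by -0.34 ± 0.17 (SE), and Mmp28 by -0.16 without K459 and -0.51 without TCPA18654. In the other direction, Plaur averaged 10.91 ± 0.52 over the TPAC lines and 9.79 ± 0.93 over the TPC lines (SD, n = 2 each), which is a difference of 1.12 ± 0.57 (SE; limma, adjusted p = 0.989). It was 0.46 without TPC20223, 0.75 without K459, 1.78 without TPC18645 and 1.49 without TCPA18654. Adam8 differed by 0.38 ± 0.17 (SE), and by 0.22 without TPC20223. Adam9 differed by 0.28 ± 0.23 (SE), and by 0.05 without TPC20223, 0.12 without K459, 0.50 without TPC18645 and 0.42 without TCPA18654. None of these 6 differences was called by limma, whose test draws the SE of each gene toward that of all genes. For Adam15 both TPAC lines read 10.48, below the TPC lines at 10.68 and 10.76.

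**Figure D3:**
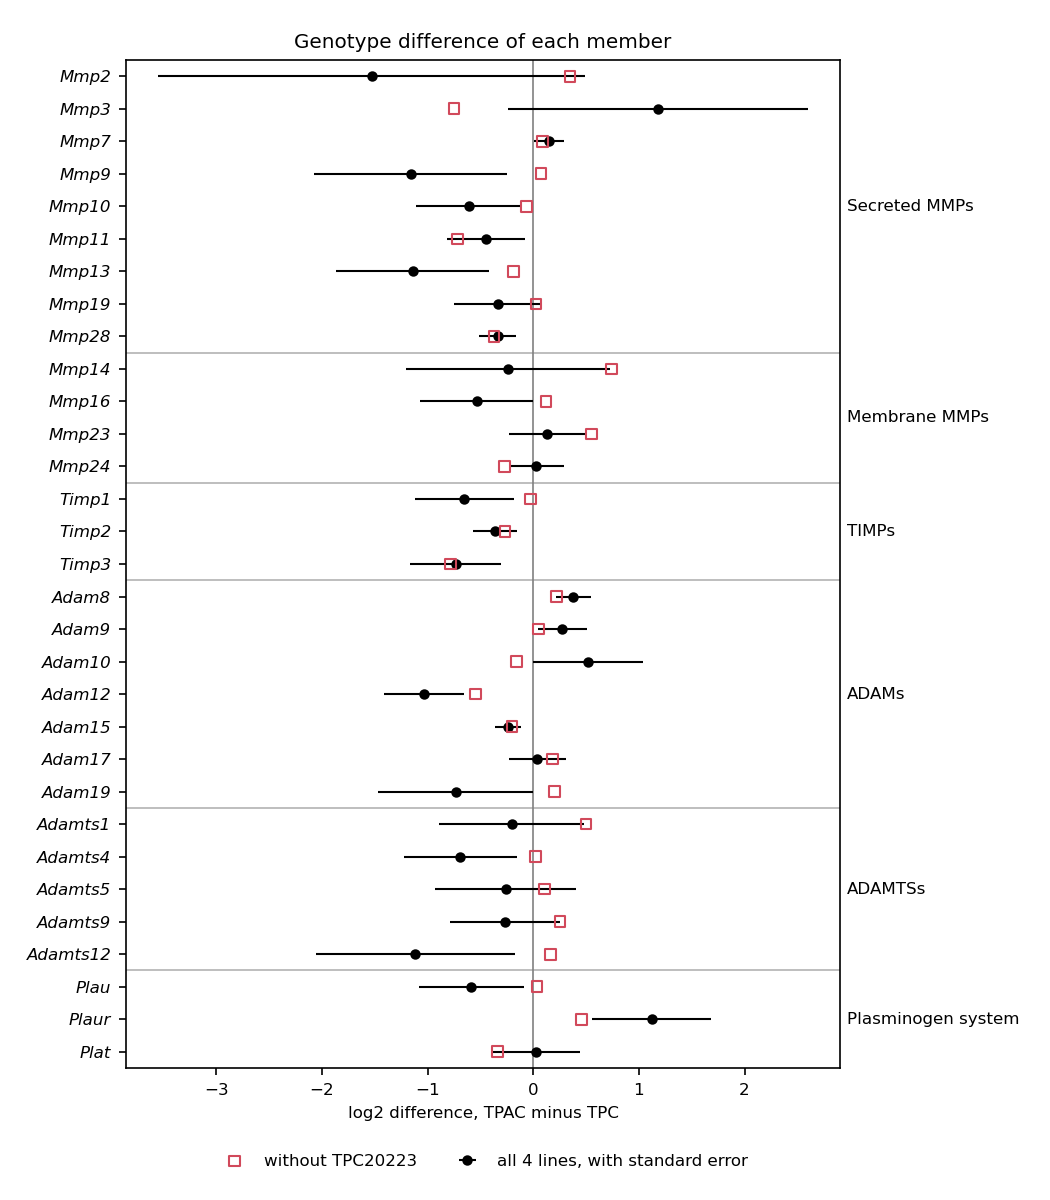
Log2 difference, mean of the TPAC lines minus mean of the TPC lines (horizontal axis), for the 31 genes grouped by role; black points with bars are the difference over all 4 lines and its standard error from limma, and open squares the difference without TPC20223. Without TPC20223, 18 genes lie above 0, against 10 with all lines.

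Between single lines the number of genes 2-fold or more apart depended on which lines were compared. Between the 2 TPC lines 16 of the 31 genes lay 2-fold or more apart, against 11.2% of all genes. Of these, 13 were higher in TPC20223 (5.97% of all genes) and 3, Mmp3, Adam10 and Plaur, were higher in TPC18645 (5.28%). Between TPC20223 and K459 there were 13 genes, against 10.9% of all genes, 10 of them higher in TPC20223 (5.79%) and 3 in K459 (5.11%). Between TPC20223 and TCPA18654 there were 18, against 10.9%, 15 of them higher in TPC20223 (6.33%) and 3 in TCPA18654 (4.55%). The same 3 genes, Mmp3, Adam10 and Plaur, were the ones 2-fold or more lower in TPC20223 in each of its 3 pairs; the pairs share this line, so they are not independent.

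Pairs without TPC20223 held fewer genes. Between TPC18645 and K459 there were 5 of 31, against 4.34% of all genes, with Mmp2, Mmp14 and Adamts1 higher in K459 (2.6%) and Mmp11 and Timp3 lower (1.74%). Between the 2 TPAC lines there were also 5, against 3.87%, with Mmp2, Mmp14, Adamts1 and Adamts5 higher in K459 (2.62%) and Timp3 lower (1.25%). Between TPC18645 and TCPA18654 there was 1, Mmp2, against 0.271%, and it was higher in TPC18645 (0.15%). The lines of 1 genotype were therefore farther apart in these genes than TPC18645 and TCPA18654, which differ in genotype by their labels. Whether TPC18645 and TCPA18654 are independent lines could not be learned, whereas the limma fit takes every line as independent.

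**Figure D4:**
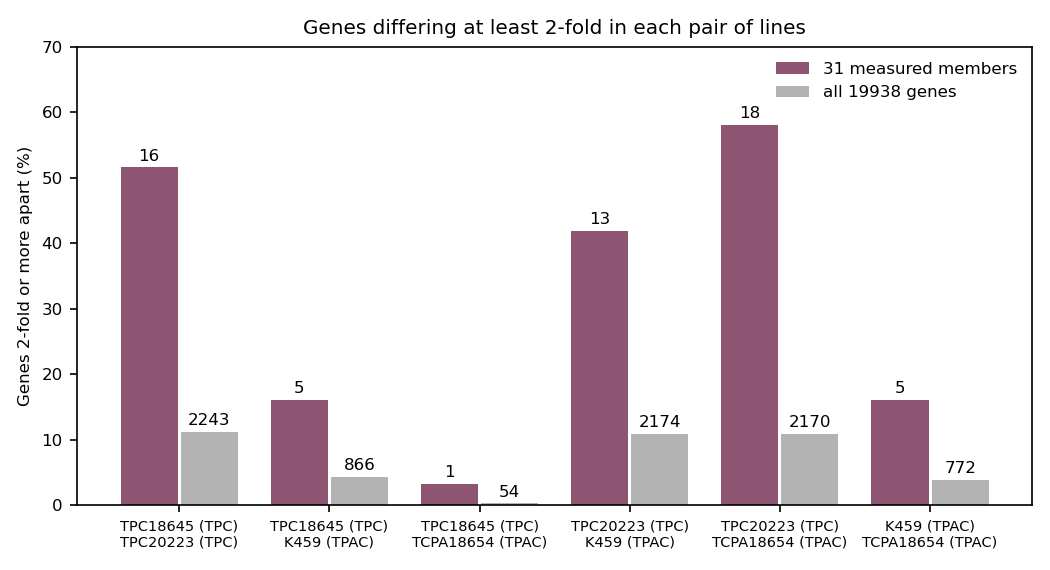
Share of genes (vertical axis, percent) that lie 2-fold or more apart between the lines of each pair, for the 31 measured proteases and inhibitors and for all 19938 genes; numbers above the bars are counts of genes. The 3 pairs with TPC20223 hold 13 to 18 of the 31 genes and the other pairs 1 to 5.

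Among 74 measured genes of 76 on a list of other genes of the proteolysis system, 0 were called between genotypes by limma, and 0 had an unadjusted p under 0.05. Their means were higher in TPAC cells for 39 and lower for 34, against 52.2% and 46.7% of all genes. The median difference was 0.02. Over the 4 lines 23 spanned 2-fold or more, against 15.9% of all genes, and 34 of the 74 were dim. The genes of smallest p were Htra1 (difference -0.75), a secreted serine protease, Serping1 (-1.75), the C1 inhibitor, and Adamts6 (-0.81). In the other direction they were Serpinb5 (1.38), the serpin maspin of epithelial cells, St14 (0.78), the membrane serine protease matriptase, and Cst6 (0.43), a cystatin. Each had an adjusted p of 0.989 by limma, and Serpinb5 and Cst6 are dim.

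The widest span in that list was that of Spint2, a Kunitz-type inhibitor of matriptase and hepsin, with 10.29 (TPC18645), 6.75 (TPC20223), 11.06 (K459) and 10.16 (TCPA18654). TPC20223 was low. Serping1 had 7.55, 9.85, 6.39 and 7.51, and Adamtsl1, a matrix protein like ADAMTS enzymes but without the protease part, had 6.56, 9.53, 6.31 and 6.54, both highest in TPC20223. Pcsk6, a proprotein convertase, had 7.50 (TPC18645), 10.44 (TPC20223), 10.42 (K459) and 7.48 (TCPA18654), which is the order of lines seen for Mmp14. Ctsk (cathepsin K), a collagen-cutting lysosomal protease, had 6.70, 9.05, 6.27 and 7.13 and was highest in TPC20223. Cathepsins B, D and L (Ctsb, Ctsd and Ctsl) and the extracellular cystatin gene Cst3 spanned 0.37 to 0.56.

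Markers of other cells moved with TPC20223 in part. The mean log2 signal of 12 fibroblast and mesenchymal markers was 8.58 (TPC18645), 10.03 (TPC20223), 9.0 (K459) and 8.39 (TCPA18654). Among the single markers only Pdgfrb, Col3a1 and Postn ranked the lines as this mean did. Of these 12 markers, Col1a1 had 8.53, 13.02, 10.36 and 8.72 and Postn 5.99, 11.71, 8.55 and 5.15, whereas Lum and Fap, which is also on the proteolysis list, were dim. TPC20223 was the highest line for the markers of this list other than Dcn, Thy1 and Fap, though for Vim and Lum by 0.02 and 0.07. Dcn (decorin) had 11.03, 9.35, 8.57 and 10.99 and was thus higher in TPC18645 and TCPA18654. Thy1 had 6.99, 7.23, 8.86 and 6.87 with K459 the highest line. K459 was the lowest line for Pdgfra (8.32, 10.32, 7.72 and 8.0), Acta2 (12.64, 13.24, 11.66 and 12.09), Dcn, Vim and Lum. The mean over 10 ductal epithelial markers was 10.17, 7.19, 11.52 and 10.33 in the same order of lines. TPC20223 was the lowest line for these markers other than Sox9, which had 10.21, 10.89, 11.56 and 10.14. For Epcam, Cldn4 and Cldn7 it lay only 0.39, 0.19 and 0.43 below the next line, and K459 was the highest. Of 8 macrophage and monocyte markers 6 were dim by their mean over the lines, with Ptprc (CD45) at 5.61 to 6.02. So were all 6 neutrophil and all 5 endothelial markers, and 3 of the 4 measured acinar markers of 6. RMA values have no 0. The endothelial markers Tek (5.85, 7.15, 5.80 and 5.80) and Kdr (6.20, 7.02, 6.16 and 6.13) nevertheless lay above the limit of 6.96 in TPC20223. The macrophage and monocyte markers that were not dim were Cd14, with 9.66, 6.66, 10.53 and 9.59, and Cd68, with 8.60, 6.66, 7.66 and 8.60, and both were lowest in TPC20223. Whether mesenchymal cells in the culture or a mesenchymal state of the tumor cells had a part in the protease signals was not tested.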

How the data were processed

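The 4 arrays hold 28941 transcript clusters each. The authors deposited log2 signals made by RMA (background correction, a common distribution for all arrays, 1 value per cluster), with Expression Console 1.4 named in the submitters' processing notes. Filters and batches are not given in those sources. RMA hides differences in total RNA, and its values carry no detection call; the number of arrays limits the precision.

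Clusters with 1 symbol in the platform annotation (21789) were used, and each gene took its brightest cluster by mean. All 31 measured members matched RefSeq (GRCm38.p6) by Entrez number with 0 symbols changed. No filter on low signal was applied. TPAC and TPC were compared with limma 3.58.1 (lmFit and eBayes, R 4.3.3), and two-sided p-values were adjusted by Benjamini and Hochberg's method over 19938 genes. The fit was also run on simulated data with the same spread for all genes and no line set apart, so that run does not cover the spread of these lines. Groups followed the genotype labels, and pairs of single lines were described with no test.

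The members and lists were chosen with earlier results of these data known. Values per line are given for members that span 2-fold or more and for some others, genotype differences for the 3 members of smallest p in each direction, and, of the other proteolysis genes, those of smallest p and the 5 of widest span. Mmp8, Ctsb, Ctsd, Ctsl, Cst3 and the single markers were named beyond this rule after their values were seen. Promoter windows are from RefSeq; protein features were not analysed here. Each line was left out in turn. Other alternatives were cyclic loess, setting all arrays to the same median, averaging the clusters of a gene, dropping dim genes, an intensity trend, other thresholds and the methods' t-test.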

Additional observations from a re-analysis of the deposited data

How the results depend on the processing

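Between genotypes 0 genes and 0 of the 31 proteases and inhibitors were called by limma under any alternative, leaving out each line in turn included (0 to 0 for both). At an unadjusted p under 0.05 with a log2 difference of 0.58, 84 genes passed by limma and 15 by the methods' t-test, none of them among the 31 genes. With a common median per array Adam12 passed this limit, without TPC20223 Mmp3 and without TCPA18654 Timp3. Without TPC18645, 12 of the 31 genes passed it, 3 higher and 9 lower, as did 1269 higher and 1585 lower genes of all. The number of the 31 genes higher in TPAC cells was 8 to 18 with 1 line left out, the highest without TPC20223. The median difference then ran from -0.69 to 0.04. Under the other alternatives the number was 10, or 8 where the dim genes Mmp7, Mmp16 and Mmp24 were dropped from the list. At 1.5-fold in place of 2-fold, the pairs TPC18645 with K459, TPC18645 with TCPA18654 and K459 with TCPA18654 held 11, 4 and 13 of the 31 genes; the counts of the other pairs stayed within 1.5 times. Of 174 differences of 2-fold or more between single lines, recomputed under a common median, cyclic loess and the mean of a gene's clusters, 0 changed sign and 0 moved by over 1.5 times. No paired analysis was possible because the labels give the lines no numbers shared between genotypes. Values without a detection call limit what can be said of dim genes.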

Other observations

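Further genes of the proteolysis system, chosen after their values were seen, also set TPC20223 apart. Reck, a membrane-anchored inhibitor of MMPs, read 6.48 (TPC18645), 9.25 (TPC20223), 7.0 (K459) and 6.59 (TCPA18654) on the log2 scale. Serpinb2, the plasminogen activator inhibitor PAI-2 and a dim gene, had 5.51, 7.82, 5.67 and 5.71 in the same order of lines. Adamts3, a procollagen N-proteinase read by 16 clusters, had 8.01, 10.25, 8.21 and 8.10 in the brightest of them. All 3 were highest in TPC20223. Spint1, a Kunitz-type inhibitor of matriptase, had 7.73, 7.95, 10.08 and 7.97 and was high in K459. Mme (neprilysin), a cell surface peptidase, had 10.16, 11.35, 8.84 and 10.61, with K459 the lowest line. Each value is 1 array, and no test was made.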
